A study of Arabidopsis thaliana with 16 samples.

Results

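Plants cover their shoots with a cuticle, a film of the polyester cutin filled and overlaid with wax. A set of 10 genes of wax synthesis in Arabidopsis thaliana was followed, out of the 69252 annotated entries in each expression table. The genes were chosen by name for their roles in that pathway, with earlier results of these data known. They comprise KCS6, KCS1, KCS2 and CER2 of fatty acid elongation, CER1, CER3 and MAH1 of the alkane branch, CER4 and WSD1 of the alcohol and ester branch, and the transcription factor MYB96. The series asked how ultraviolet B (UV-B) light acts on DNA methylation and expression in whole seedlings, which were frozen on day 10 after growth on sucrose-containing agar. The 16 samples comprise 8 RNA-seq and 8 bisulfite libraries, and the bisulfite libraries were not analysed here.

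The expression values cover 3 groups of 2 biological replicates each, all in the Columbia-0 ecotype. The dd group carries the T-DNA alleles drm1-2 and drm2-2, insertions in both DRM cytosine methyltransferase genes, and grew in 60 mE of white light. The UV-B group is wild-type Col-0 that received 1.5 mE of UV-B at 315 nm together with the same white light from day 1. The reference for both is wild-type Col-0 in white light without UV-B. The dd libraries grown under UV-B were not analysed here. Values are FPKM, a level per transcript length and per library size. Each group has 1 pooled value, the spread between its replicates is unknown, and the authors' own p-values and q-values are the only test across them.

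Wax is made in epidermal cells from very-long-chain fatty acids. An elongase at the endoplasmic reticulum adds carbon units in a cycle whose first step, catalysed by a 3-ketoacyl-CoA synthase (KCS), sets which chain lengths form. The acyl chains then enter an alkane branch, which also yields secondary alcohols and ketones, or a branch that yields primary alcohols and wax esters. Transporters and lipid transfer proteins carry the products to the surface, and MYB and AP2/ERF transcription factors control the genes. Wax limits water loss and reflects part of the incident ultraviolet light.

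The tissue and the treatments were checked first. In dd, DRM2 had 1.82 FPKM against 7.09 FPKM in Col-0 (q = 0.0138 in the authors' deposited table), and DRM1 was listed at 0.319 FPKM in dd and at 0 in Col-0. TT4, the chalcone synthase that UV-B light is known to induce, had 941 FPKM under UV-B against 246 FPKM in white light (q = 0.00249 in the authors' deposited table). The labels give whole seedlings, and leaf, root and epidermal transcripts were present in each group. For example, the Rubisco gene RBCS1A, the root gene PYK10 and the epidermal gene PDF1 had 13340, 1797 and 102.9 FPKM under UV-B. Depth was estimated from the lowest values of isolated transposons, as FPKM times length in kb. By this estimate Col-0 in white light was sequenced 3.58 times as deeply as dd and 2.54 times as deeply as Col-0 under UV-B. Low transcripts would then be the least precise in dd and under UV-B. The estimate rests on 24 entries in dd, 28 under UV-B and 54 in Col-0 in white light. Each value pools 2 libraries, so it may not give the depth of a whole group.

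In Col-0 under UV-B, CER1 was the wax synthesis gene that passed the authors' test, with 0.541 of its level in white light. It was 1 of 9 tested genes past q 0.05 in the authors' deposited table, beside 3.85% of 20595 tested entries. In dd 0 of 9 passed, beside 0.421% of 20416 tested entries. CER3, the partner of CER1, had nearly the same level in all 3 groups. The other tested genes passed in neither comparison, and MAH1 was not tested.

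The levels of the genes differed widely, with 162 times as much KCS6 as WSD1 in Col-0 in white light. KCS6 was the highest, at 244 FPKM in dd, 210 FPKM under UV-B and 233 FPKM in Col-0 in white light. KCS1, CER2, CER3 and CER1 lay next to each other, between 35.04 and 58.2 FPKM in Col-0 in white light, with neighbours in that order differing 1.06 to 1.26 times. MYB96 followed with 19.9 FPKM and KCS2 with 8.09 FPKM. WSD1 and CER4 were the lowest of the detected genes, at 1.44 and 1.42 FPKM in Col-0 in white light. The order was the same in all 3 groups except that CER1 stood above CER3 in dd, and that CER4 stood above WSD1 under UV-B. Neither of these neighbouring pairs can be ranked without a spread between replicates.

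**Figure D1:**
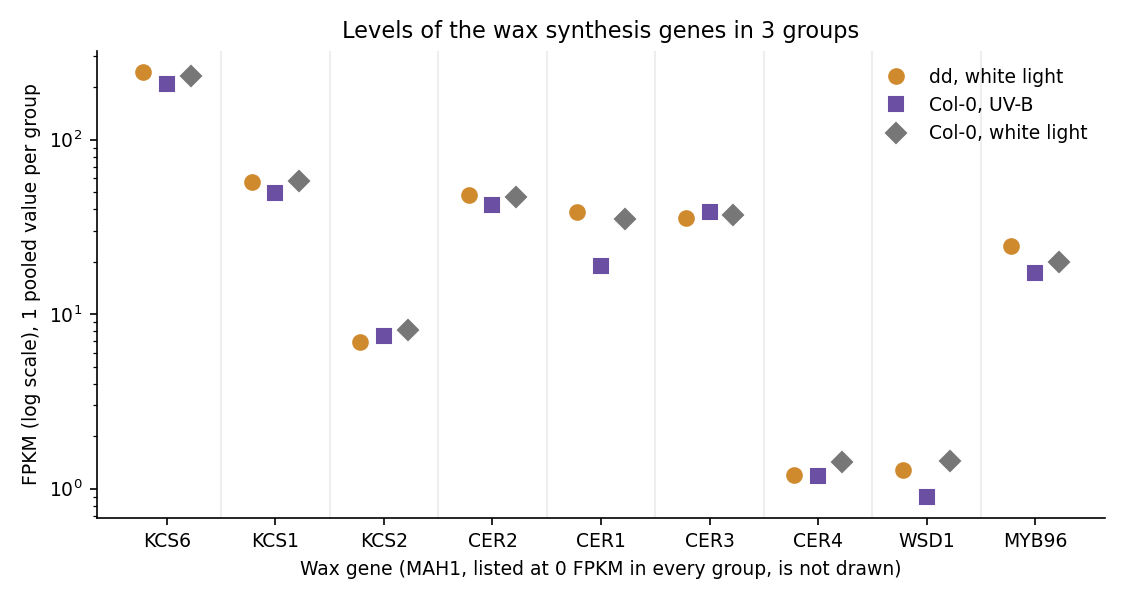
Level of each wax synthesis gene in FPKM on a log axis, 1 pooled value per group, for dd in white light (circles), Col-0 under UV-B (squares) and Col-0 in white light (diamonds, values from the UV-B table). The points of CER1 lie farthest apart, with 19.0 FPKM under UV-B below 38.5 FPKM in dd and 35.04 FPKM in Col-0 in white light, and those of WSD1 follow, with 0.901, 1.29 and 1.44 FPKM, without passing the test.

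The alkane branch held the gene that passed the test. CER1 (AT1G02205, chromosome 1, 418416 to 422579, TAIR10) encodes the enzyme that, in a complex with CER3, forms very-long-chain alkanes, the main wax components of Arabidopsis shoots. It had 19.0 FPKM under UV-B against 35.04 FPKM in white light in the authors' deposited table (authors' p = 5e-05, q = 0.00249). The log2 change was -0.89, with a 95% interval of -1.33 to -0.44. Each interval is 1.96 times the error implied by the authors' test statistic, taken as the log2 change divided by that statistic. The p of CER1 is the smallest value the table holds and is shared by 413 entries, so it gives no rank beyond that. By size of change CER1 was 174th of the 373 entries called lower.

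In dd, CER1 had 38.5 FPKM against 35.3 FPKM in Col-0 (log2 change 0.12, interval -0.32 to 0.57; q = 0.999 in the authors' deposited table). Its level in dd was thus slightly above that in Col-0 in white light, and the interval spans 0. Col-0 in white light is the same pair of libraries in both comparisons, so the 2 changes of a gene share a control. The 2 tables list its values with a constant scale difference of 1.01.

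CER3 (AT5G57800, chromosome 5, 23420184 to 23424117) encodes the protein that acts with CER1 and is thought to supply the aldehyde intermediate. It had 38.3 FPKM under UV-B against 37.1 FPKM in white light (log2 change 0.04, interval -0.39 to 0.48; q = 0.998 in the authors' deposited table). The dd value was 35.4 FPKM against 37.4 FPKM in Col-0, which did not pass the test either. The ratio of CER1 to CER3 in FPKM was 1.09 in dd, 0.495 in Col-0 under UV-B and 0.944 in Col-0 in white light. Under UV-B the log2 change of CER1 was lower than that of CER3 by 0.93 (difference -0.93, interval -1.55 to -0.31, taking the errors of both genes as independent). The corresponding difference in dd was 0.21, with an interval of -0.42 to 0.83. CER3 was the 1 tested wax synthesis gene with a higher value under UV-B. Against CER2, computed likewise, the difference of CER1 under UV-B was -0.73, and its interval of -1.56 to 0.10 includes 0. Against KCS6 it was -0.73 (interval -1.34 to -0.13) and against MYB96 -0.68 (interval -1.34 to -0.03). CER1 was singled out by its own low value under UV-B, so these intervals are a description and not a test. Differences against KCS1, KCS2, CER4 and WSD1 were not computed.

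MAH1 (AT1G57750, chromosome 1, 21383812 to 21385709), the cytochrome P450 that hydroxylates alkanes to secondary alcohols and ketones and is known for its role in stem wax, was listed at 0 FPKM in all 3 groups and was not tested. CER1-LIKE1 (AT1G02190, chromosome 1, 415074 to 418027), a relative of CER1 that lies directly before it, was close to 0 throughout. It was listed at 0.362 FPKM in dd, at 0 under UV-B, and at 0.236 and 0.234 FPKM in Col-0 in white light in the 2 tables, and was not tested.

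**Figure D2:**
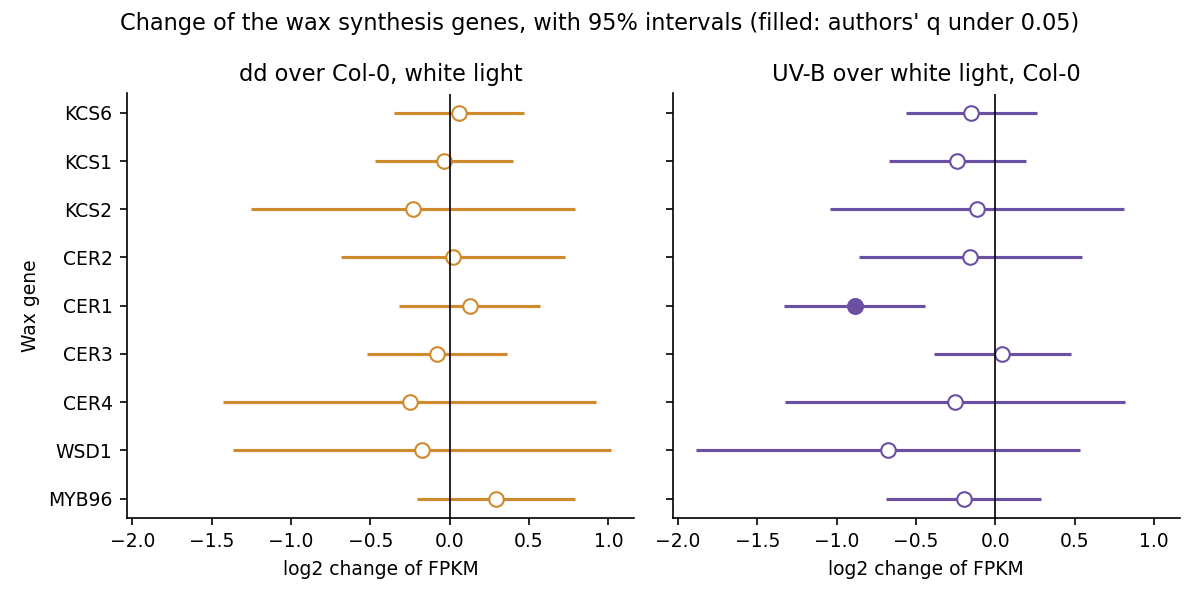
Log2 change of FPKM for the 9 tested wax synthesis genes, dd over Col-0 in white light (left) and UV-B over white light in Col-0 (right), with bars for the 95% intervals implied by the authors' test statistics. Filled points have the authors' q under 0.05. The interval of CER1 under UV-B, -1.33 to -0.44, is the single one that does not include 0.

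The elongation genes all had slightly lower values under UV-B, and none passed the test. KCS6 (AT1G68530, chromosome 1, 25712414 to 25715024), also called CER6 and the main condensing enzyme for wax precursors, had 210 FPKM under UV-B against 233 FPKM in white light (log2 change -0.15, interval -0.56 to 0.26; q = 0.882 in the authors' deposited table). In dd it had 244 FPKM against 235 FPKM in Col-0 (log2 change 0.06, interval -0.35 to 0.47). The intervals of KCS6 leave room for a level under UV-B between 0.677 and 1.198 times that in white light. The ratio of KCS6 to CER1 was 6.34 in dd, 11.1 under UV-B and 6.65 in Col-0 in white light.

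KCS1 (AT1G01120, chromosome 1, 57164 to 59215), a condensing enzyme with broad chain-length range, had 49.3 FPKM under UV-B against 58.2 FPKM in white light (log2 change -0.24, interval -0.67 to 0.19; q = 0.655 in the authors' deposited table). The dd value was 57.3 FPKM against 58.7 FPKM in Col-0, a log2 change of -0.04. KCS2 (AT1G04220, locus range 1114375 to 1122786 on chromosome 1), which acts in wax and in root suberin, had 7.46 FPKM under UV-B against 8.09 FPKM in white light, and 6.95 FPKM in dd against 8.16 FPKM in Col-0. Neither passed in either comparison. The interval of KCS2 was wide, -1.04 to 0.81 under UV-B, so a change of the size seen in CER1 would lie within it.

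CER2 (AT4G24510, locus range 12660687 to 12667262 on chromosome 4), a protein that is needed with KCS6 to make the longest chains, had 42.0 FPKM under UV-B against 46.8 FPKM in white light (log2 change -0.16, interval -0.86 to 0.54). The dd value was 47.9 FPKM against 47.2 FPKM in Col-0 (log2 change 0.02). The locus ranges of KCS2 and CER2 each overlap 1 other protein-coding entry and 1 antisense RNA, and the sources used here do not say how overlapping reads were divided. The coding neighbours, AT1G04210 beside KCS2 and AT4G24520 beside CER2, did not pass the test in either comparison, and the antisense RNAs were below 1 FPKM.

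The genes of the alcohol and ester branch were near the lower limit of what could be measured. CER4 (AT4G33790, chromosome 4, 16204096 to 16207956), the fatty acyl-CoA reductase that makes primary alcohols, had 1.19 FPKM under UV-B against 1.42 FPKM in white light, and 1.202 FPKM in dd against 1.43 FPKM in Col-0. WSD1 (AT5G37300, chromosome 5, 14767426 to 14770396), which joins alcohols and acyl chains into wax esters, had 0.901 FPKM under UV-B against 1.44 FPKM in white light (log2 change -0.68, interval -1.89 to 0.53; authors' p = 0.0921, q = 0.576 in the authors' deposited table). Its dd value was 1.29 FPKM against 1.45 FPKM in Col-0. After CER1, WSD1 had the next lowest log2 change of the genes under UV-B, but at its low level the implied error of 0.62 was almost as large as the change itself. For CER4 the interval under UV-B was -1.33 to 0.82.

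MYB96 (AT5G62470, chromosome 5, 25078991 to 25081141), a transcription factor that activates wax genes in drought and under abscisic acid, had 17.3 FPKM under UV-B against 19.9 FPKM in white light (log2 change -0.20, interval -0.69 to 0.29). In dd it had 24.6 FPKM against 20.1 FPKM in Col-0 (log2 change 0.29, interval -0.21 to 0.79; authors' p = 0.104, q = 0.999 in the authors' deposited table). Its highest value was thus in dd and its lowest under UV-B, without passing the test in either comparison.

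Counted together, 1 of 9 tested wax synthesis genes was called lower under UV-B and 0 were called higher, by q under 0.05 in the authors' deposited table. Of all tested entries, 1.81% were called lower and 2.04% higher. A single call among 9 genes is too few to read a share from. By value 8 of the 9 genes were lower under UV-B, with a median log2 change of -0.20. The median over all tested entries was 0.00, with 10330 of 20595 lower by value. In dd, 0 of 9 passed, and 0 had an unadjusted p under 0.05. There 0.264% of tested entries were called higher and 0.157% lower, and 3.71% had an unadjusted p under 0.05. By value 4 were higher and 5 lower in dd, with a median log2 change of -0.04 beside 0.00 over all tested entries. The summed level of the 10 genes was 457 FPKM in dd against 445 FPKM in Col-0, and 385 FPKM under UV-B against 441 FPKM in white light, with KCS6 making up the greater part of each sum.

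Markers of the epidermis, where wax is made, were also slightly lower by value under UV-B. All 6 epidermal markers had lower values, 0 passed the authors' test and 0 had an unadjusted p under 0.05, with a median log2 change of -0.17. Of all 20595 tested entries 10330 were lower by value, 3.85% passed and 11.7% had an unadjusted p under 0.05. The summed level of the 6 markers was 299.9 FPKM under UV-B against 336 FPKM in white light, a ratio of 0.894, while that of CER1 was 0.541. KCS10, which is also a member of the KCS family, made up 128.9 FPKM of that sum under UV-B and 137.1 FPKM in white light. Without it the sum was 171.1 FPKM under UV-B against 198.4 FPKM in white light, a ratio of 0.862. PDF1 alone made up 102.9 FPKM of this smaller sum under UV-B and 123.7 FPKM in white light. Of the same 6 markers, ATML1 and PDF2 had log2 changes of -0.17 and -0.06 under UV-B. GL2 (log2 change -0.39, interval -2.57 to 1.79) and PDF1 (-0.27, interval -0.69 to 0.16) had the lowest values of that list. Both intervals include 0, and that of GL2 is too wide to give a direction. In dd 3 epidermal markers were higher and 3 lower by value, and the sum was 338 FPKM both in dd and in Col-0 (193.9 FPKM in dd against 200.1 FPKM in Col-0 without KCS10). Of 3 leaf markers under UV-B, LHCB1.2, a light-harvesting protein gene, fell to 3340 FPKM, against 5314 FPKM in white light (q = 0.00249 in the authors' deposited table). RCA and RBCS1A were higher by value without passing, and in dd 0 of 3 passed, beside 0.421% of all tested entries. In whole seedlings, fewer epidermal cells and less RNA per cell cannot be told apart, and the part of the epidermal share in the level of CER1 was not tested.

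The KCS family was examined as a whole, since its members differ in chain length and tissue. Of 21 genes, 14 were tested under UV-B, and 4 of the 7 others, KCS7, KCS15, KCS18 and KCS21, were listed at 0 in all 3 groups. Of the 14 tested genes 2, KCS12 (AT2G28630) and KCS16 (AT4G34250), were called lower under UV-B, beside 1.81% of all tested entries. KCS12 had 16.8 FPKM under UV-B against 30.1 FPKM in white light (log2 change -0.84, interval -1.30 to -0.38; q = 0.00249 in the authors' deposited table). KCS16 had 6.86 FPKM under UV-B against 12.02 FPKM in white light (log2 change -0.81, interval -1.33 to -0.29; q = 0.00249 in the authors' deposited table). Both changes were close in size to that of CER1.

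In dd, KCS12 had 36.3 FPKM against 30.4 FPKM in Col-0 and KCS16 had 10.9 FPKM against 12.1 FPKM in Col-0, and neither passed the test. KCS8 (AT2G15090) had 23.7 FPKM under UV-B against 32.6 FPKM in white light and missed the threshold (authors' p = 0.00455, q = 0.0919 in the authors' deposited table). In dd KCS8 was higher by value, with 43.8 FPKM against 32.8 FPKM in Col-0, and did not pass (authors' p = 0.01035, q = 0.677 in the authors' deposited table). KCS20 (AT5G43760), which acts redundantly with KCS2, had 87.04 FPKM under UV-B against 69.96 FPKM in white light and did not pass (authors' p = 0.0360, q = 0.356 in the authors' deposited table). KCS8 and KCS20 were named after their values were seen. KCS6 held 29.9% of the summed FPKM of the family in dd, 29.0% under UV-B and 30.2% in Col-0 in white light, and KCS10 was second in each group, with 17.7%, 17.9% and 17.8%. The 2 genes that fell together held 3.28% of the family sum under UV-B and 5.46% in white light.

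**Figure D3:**
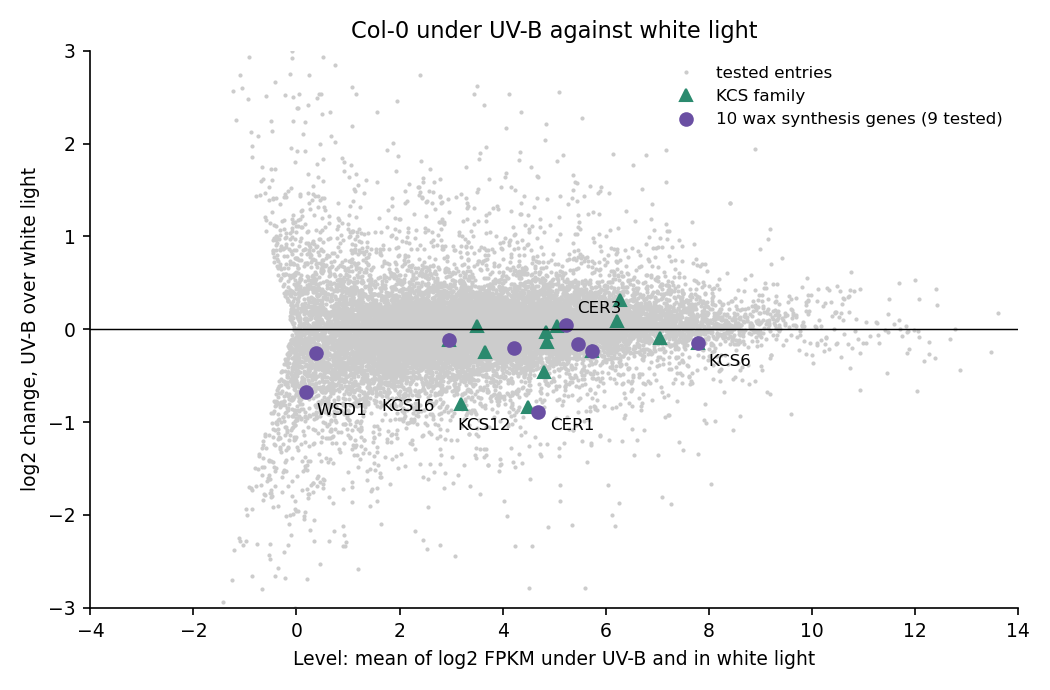
Log2 change under UV-B over white light in Col-0 (vertical axis) against level, the mean of the 2 log2 FPKM values (horizontal axis), for all tested entries above 0 in both groups (grey), the KCS family (triangles) and the wax synthesis genes (circles, drawn over KCS1, KCS2 and KCS6). CER1, KCS12 and KCS16 lie together at log2 changes of -0.89, -0.84 and -0.81, below the other labelled genes. A few entries beyond 3 on the vertical axis are not shown.

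Of the remaining genes of wax synthesis, 1 of 9 tested was called higher under UV-B and 0 lower, against 3.85% of all tested entries called in either direction. The gene that rose was ACC1 (AT1G36160), the cytosolic acetyl-CoA carboxylase that makes the malonyl-CoA used in each elongation cycle and in flavonoid synthesis. It had 25.4 FPKM under UV-B against 17.96 FPKM in white light (log2 change 0.50, interval 0.08 to 0.93; q = 0.0308 in the authors' deposited table). Its dd value was 17.2 FPKM against 18.1 FPKM in Col-0. The core elongase subunits besides the KCS enzymes, KCR1, PAS2 and CER10, had log2 changes under UV-B of -0.16, 0.05 and -0.10, and none passed.

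None of the tested genes of wax export and regulation passed the authors' test in either comparison, and 0 had an unadjusted p under 0.05. Of all tested entries, 3.85% passed under UV-B and 0.421% in dd, and 11.7% and 3.71% had an unadjusted p under 0.05. Lists this short are too small to read a share from. The 4 export genes were lower by value under UV-B by small amounts, with LTPG2 (log2 change -0.15) and LTPG1 (-0.12), which encode lipid transfer proteins, at the lower end. In dd LTPG1 and LTPG2 had log2 changes of 0.06 and 0.04. Of 12 regulators 10 were tested. MYB41 had 0.424 FPKM under UV-B against 1.03 FPKM in white light, a log2 change of -1.28 with an interval of -3.35 to 0.80, and SHN2, an AP2/ERF activator of cuticle genes, had 1.62 FPKM against 2.88 FPKM. Both were low transcripts with authors' p-values of 0.0796 and 0.0632 in the authors' deposited table. MYB94, a close relative of MYB96 that acts with it, had 7.10 FPKM under UV-B against 7.48 FPKM in white light, and DEWAX, a repressor of wax genes, had 98.9 FPKM against 114 FPKM. Neither passed, and both were named after their values were seen.

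Cutin and suberin genes share precursors with wax. Under UV-B 0 of 10 cutin genes passed the authors' test, beside 3.85% of all tested entries, 1, DCR, had an unadjusted p under 0.05, and 8 were lower by value. In dd 0 of 10 passed and 0 had an unadjusted p under 0.05, beside 0.421% and 3.71% of all tested entries. GPAT8 (log2 change 0.21) and CYP86A8 (0.15) showed the largest changes in dd. BDG1 and DCR, a hydrolase and an acyltransferase of cutin formation, had the largest changes under UV-B, with 11.3 FPKM against 15.1 FPKM in white light for BDG1 and 32.1 FPKM against 41.1 FPKM in white light for DCR. Of 11 suberin genes 1 was called lower under UV-B, beside 1.81% of all tested entries. It was FAR1 (AT5G22500), a fatty acyl-CoA reductase related to CER4 that makes primary alcohols of root suberin, with 8.07 FPKM under UV-B against 14.9 FPKM in white light (log2 change -0.89, interval -1.40 to -0.37; q = 0.00249 in the authors' deposited table). In dd FAR1 had 18.6 FPKM against 15.05 FPKM in Col-0 and did not pass (authors' p = 0.0777, q = 0.999 in the authors' deposited table). Of the 11 suberin genes 9 were lower by value in dd and 0 passed, with a median log2 change of -0.21 and a summed level of 90.0 FPKM in dd against 100.2 FPKM in Col-0. Of these genes FACT alone had an unadjusted p under 0.05.

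Values of root markers were set beside those of the suberin genes. All 6 root and endodermal markers were lower by value under UV-B, beside 10330 of 20595 tested entries. The 6 markers had a median log2 change of -0.42 and a summed level of 1881 FPKM against 2273 FPKM in white light. PYK10 alone made up 1797 FPKM of that sum under UV-B and 2151 FPKM in white light, and it did not pass the test. TIP2-3, a root aquaporin, passed the test with 5.77 FPKM under UV-B against 18.6 FPKM in white light (q = 0.00249 in the authors' deposited table). It was 1 of 6 that passed, beside 3.85% of all tested entries. An unadjusted p under 0.05 was found for 3 of the 6 under UV-B, TIP2-3, CASP1 and CASP2, beside 11.7% of all tested entries. In dd all 6 were also lower by value, with a median log2 change of -0.37, and 0 passed, beside 0.421% of all tested entries. There 3 of the 6, MYB36, TIP2-3 and CASP2, had an unadjusted p under 0.05, beside 3.71% of all tested entries. The other 10 suberin genes had log2 changes between -0.33 and 0.15 under UV-B. The part of root content in the levels of FAR1 and KCS2 was not tested.

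Over all 65 further genes of wax, the KCS family, cutin and suberin, 55 were tested in each comparison. Under UV-B 1 was called higher and 3 lower, beside 3.85% of all tested entries called in either direction, and in dd 0 passed, beside 0.421%. An unadjusted p under 0.05 was found for 7 of the 55 under UV-B, beside 11.7% of all tested entries, and for 2 in dd, KCS8 and FACT, beside 3.71%. By value 42 of 55 were lower under UV-B, with a median log2 change of -0.10, and 29 of 55 were lower in dd, with a median of 0.00. Over all tested entries, 10330 of 20595 were lower by value under UV-B and 10051 of 20416 in dd. CER1, KCS12, KCS16 and FAR1 each had 0.541 to 0.571 times their white-light level under UV-B, and none of the 4 reached a 2-fold change.

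**Figure D4:**
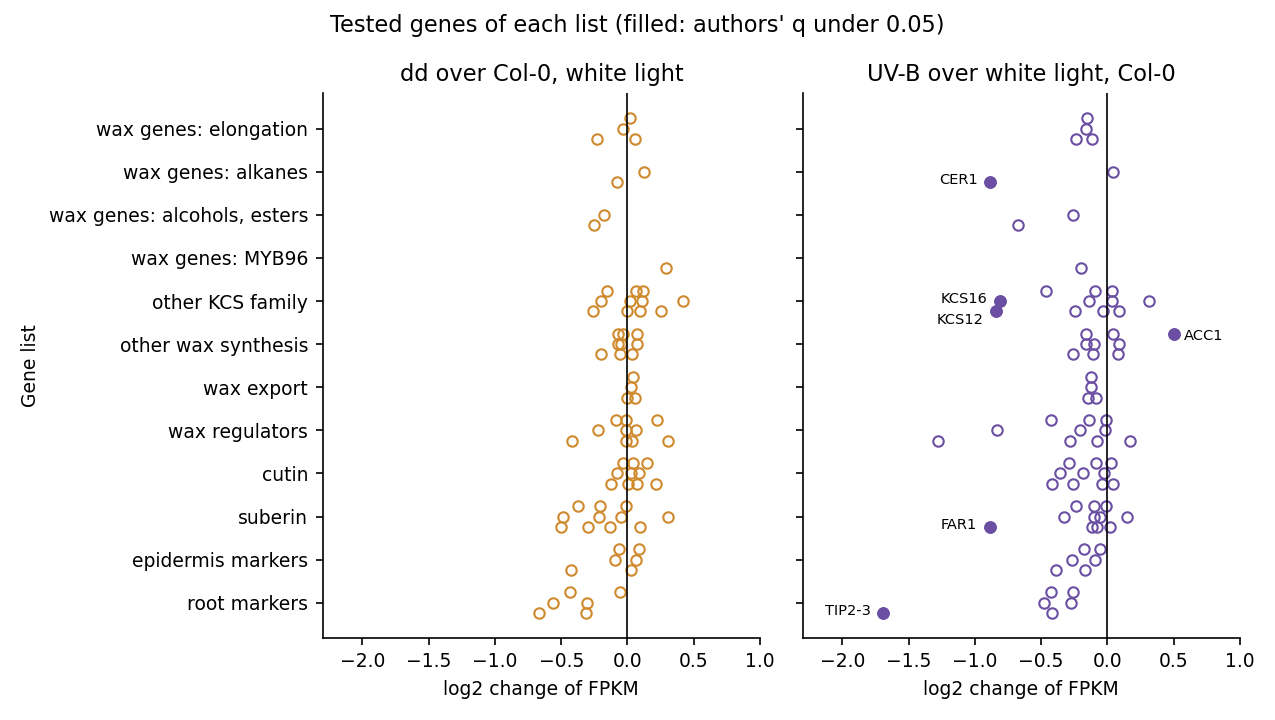
Log2 change of FPKM of each tested gene (points) in 12 gene lists, dd over Col-0 in white light (left) and UV-B over white light in Col-0 (right). Filled, labelled points have the authors' q under 0.05: CER1, KCS12, KCS16, FAR1 and TIP2-3 on the lower side and ACC1 on the higher side, all under UV-B. Leaf and guard cell markers are not drawn.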

How the data were processed

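A stranded mRNA kit was used on RNA of whole seedlings, per the labels' protocols. Tools listed by the submitters' processing notes, without versions, are HISAT2, Cufflinks, Trimmomatic and BSMAP, with the build TAIR10. The step each tool served, and the strand setting of the counting, are not given in the sources used here. Per group, the authors deposited 1 FPKM value, with their test statistic (a score) and their p-values and q-values, in 2 comparison tables. Another 2 tables list transposons and were not used.

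Log2 changes were computed with no pseudocount as dd or UV-B over Col-0 in white light, and the deposited fold column, which runs the other way, was not used. Calls are the authors' q under 0.05. Across all genes above 1 FPKM the authors' p-values correspond to errors about 1.43 times smaller than those implied by their test statistic, so the printed intervals are the wider of the 2 choices. Values per replicate were not part of the tables, so no test could be refitted and depth is known only from the estimate above. The depth estimate came from isolated transposon entries over 1200 bp in the 2 comparison tables. For each group it took the median FPKM times kb of entries above 0.01 and at most 1.7 times the smallest.

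The genes and the lists were chosen with earlier results of these data known. Named are the 10 wax synthesis genes, the check genes, listed genes past q 0.05, and for lists without any the 2 with the largest change at 1 FPKM or more. Any other gene was named after its values were seen. All 98 listed identifiers matched the RefSeq gene table of TAIR10.1, used for names only. Coordinates are 1-based locus ranges from the tables. Protein and promoter sequences were not used here. Python 3.11.15 and pandas 2.3.3 were used. The adjustment step, used only for the alternative over protein-coding entries, was tested on simulated data. The main counts use the authors' q and were not covered by that test. Alternatives were another q threshold, a 2-fold minimum, a 1 FPKM minimum, adjustment over protein-coding entries, pseudocounts and centring.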

Additional observations from a re-analysis of the deposited data

How the results depend on the processing

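With a log2 change of at least 1 also required, 0 of the 9 tested wax synthesis genes and 0 of the 55 further genes were called under UV-B, against 1 and 4 by q alone. CER1 remained called at q 0.01, at a 1 FPKM minimum and with adjustment over protein-coding entries. At q 0.01 ACC1 was lost, and KCS12, KCS16 and FAR1 remained. In dd the counts were 0 under every alternative. The stricter q, the 2-fold minimum and the 1 FPKM minimum can only remove calls, so under these a count of 0 was fixed in advance. The median log2 change of the wax synthesis genes lay between -0.20 and -0.15 under UV-B and at -0.03 to -0.04 in dd over the pseudocounts and centring. All 54 values of single genes under these alternatives kept their sign and moved by less than their implied error, by 0.32 at most. The ratios of summed epidermal markers without KCS10, chosen after seeing the data, were 0.969 in dd and 0.862 under UV-B, against 0.9997 and 0.894 with it.

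No paired analysis was possible because the tables hold 1 pooled value per group. For the same reason no replicate was left out. CER4, WSD1, MYB41 and SHN2 were low transcripts, with implied errors of 0.55 to 1.06 under UV-B on the log2 scale, and a change of the size seen in CER1 was not detectable in them at this depth.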

Other observations

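Guard cells carry a cuticle too. Markers of guard cells and their precursors, FAMA, SPCH, TMM, MYB60 and KAT1, showed no common direction under UV-B. Of these 5 markers, TMM and MYB60 were higher and the other 3 lower by value under UV-B, with a median log2 change of -0.02. None passed the test, beside 3.85% of all tested entries. MYB60, a transcription factor of guard cells, had 23.5 FPKM under UV-B against 16.9 FPKM in white light (authors' p = 0.0127, q = 0.189 in the authors' deposited table), and KAT1, a potassium channel, had 6.85 FPKM against 7.78 FPKM in white light. In dd MYB60 had 19.9 FPKM against 17.1 FPKM in Col-0 and did not pass.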
